A study of Mus musculus with 6 samples.

Results

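The 10 genes described here build and load MHC class I molecules: the class I chains H2-D1 and H2-K1, beta-2 microglobulin (B2m), the peptide transporters Tap1 and Tap2, the loading factor tapasin (Tapbp), the immunoproteasome subunits Psmb8, Psmb9 and Psmb10, and the transactivator Nlrc5. They were chosen by name from 55401 genes in a table of read counts, and all 10 were found there. The table holds 6 RNA-seq libraries from wild-type mice, labelled as basophils sorted from blood as live CD45+ cells without lineage markers that carried CD49b and FcεRIα or IgE. MC903, a vitamin D analogue that causes skin inflammation like atopic dermatitis, was applied to both ears each day from day 0 to 6 (2 nmol in 10 µL of ethanol), and controls were given the ethanol only. The labels form set A and set B, 3 libraries each. They do not say which set received MC903, so each difference is set B relative to set A. The series' design text names ear skin where the sample labels name blood, and this was not resolved. The protocol speaks of pooled RNA without saying what was pooled, and separate animals behind each library are not stated. The p-values then cover the spread between the 3 libraries of a set, which may be technical.

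MHC class I molecules show peptides from a cell's own proteins to CD8 T cells, and nearly all nucleated cells make them. The proteasome cuts proteins into peptides, the TAP1 and TAP2 transporter moves the peptides into the endoplasmic reticulum, and tapasin holds an empty class I chain with its partner B2m next to the transporter until a peptide binds. Under interferon gamma the catalytic proteasome subunits Psmb5, Psmb6 and Psmb7 are replaced by Psmb8, Psmb9 and Psmb10, in that order, and NLRC5 drives transcription of the class I pathway through a shared promoter module.

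The promoters are shown because the class I chains and B2m held a shared pair of short elements, and because Tap1 and Psmb9 start from the same stretch of DNA. RefSeq promoter windows on build GRCm38.p6, from 250 bases before to 50 after the start, were at hand for 8 of the 10 genes. Each sequence runs 5′ to 3′ along its gene. Capitals mark 3 features: the kappaB site GGGNTTCCC and the IRF core pair GAANNGAAA, each on either strand, and TGACG followed after 20 bases by ATTGG, the CRE-like core and the inverted CCAAT box of the class I promoter module. Matches are letters in a window and were not tested as binding sites. The kappaB pattern and the spacing of 20 bases were set after these promoters had been read. Other forms of the kappaB and IRF elements were not searched for.
H2-D1, chr17:35262844-35263143, plus strand: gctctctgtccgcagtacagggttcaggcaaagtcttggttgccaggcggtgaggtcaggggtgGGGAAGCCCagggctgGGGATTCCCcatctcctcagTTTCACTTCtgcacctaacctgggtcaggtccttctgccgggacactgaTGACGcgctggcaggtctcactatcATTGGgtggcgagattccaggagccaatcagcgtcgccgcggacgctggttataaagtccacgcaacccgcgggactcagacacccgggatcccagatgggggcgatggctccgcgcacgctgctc
H2-K1, chr17:34000284-34000583, minus strand: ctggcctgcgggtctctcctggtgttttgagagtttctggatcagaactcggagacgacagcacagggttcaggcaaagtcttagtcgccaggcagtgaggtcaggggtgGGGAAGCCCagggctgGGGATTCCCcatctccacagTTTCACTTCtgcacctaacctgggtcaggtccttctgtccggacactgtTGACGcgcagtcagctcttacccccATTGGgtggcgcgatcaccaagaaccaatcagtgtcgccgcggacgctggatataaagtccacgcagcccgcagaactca
B2m, chr2:122147437-122147736, plus strand: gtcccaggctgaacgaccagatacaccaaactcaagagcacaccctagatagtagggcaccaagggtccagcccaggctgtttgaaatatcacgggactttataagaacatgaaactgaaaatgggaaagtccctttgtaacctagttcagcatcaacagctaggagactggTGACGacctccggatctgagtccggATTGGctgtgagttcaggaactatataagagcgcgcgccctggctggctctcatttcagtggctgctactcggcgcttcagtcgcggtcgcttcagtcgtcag
Tap1, chr17:34187306-34187605, plus strand: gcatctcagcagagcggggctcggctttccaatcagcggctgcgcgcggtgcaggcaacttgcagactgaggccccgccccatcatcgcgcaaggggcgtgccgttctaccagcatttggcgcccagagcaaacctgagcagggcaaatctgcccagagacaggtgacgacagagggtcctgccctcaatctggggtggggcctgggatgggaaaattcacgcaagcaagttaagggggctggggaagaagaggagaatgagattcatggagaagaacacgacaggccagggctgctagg

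H2-D1, H2-K1 and B2m held the spaced pair in their windows, and the other 5 members with a window did not. Of all 27025 genes with a window of that length, 27 held the pair on either strand (0.0999%), and 3 of these were among the 32 genes named H2- with a window: H2-D1, H2-K1 and the non-classical H2-M3. The kappaB pattern as written was found in 2 places in each of H2-D1 and H2-K1. It was in none of the other 6 members with a window, and in 2.08% of all genes. The H2-D1 and H2-K1 windows also held the IRF core pair as written, which was in 8.68% of genes. The B2m window held gggaaagtccc and gaaactgaaa, which are like the kappaB and IRF patterns but longer, so they were not counted. The search therefore does not show that B2m lacks either element. Both single elements of the pair were common, with TGACG in 23% and ATTGG in 41.1% of genes, and overlaps between elements were not removed. The longest run of identical letters in the H2-D1 and H2-K1 windows was 47 bases. RefSeq gives H2-K1 another start 14 bases upstream, whose window held the same elements. The start sites of Tap1 and Psmb9 lie 226 bases apart on opposite strands, so that 275 bases of their windows are the same DNA. That stretch held a TGACG and an ATTGG, and neither window held the spaced pair or matched the kappaB or IRF pattern as written. Psmb9, Tap1, Psmb8 and Tap2 follow each other on chromosome 17 in RefSeq with no other protein-coding gene between them.

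**Figure D1:**
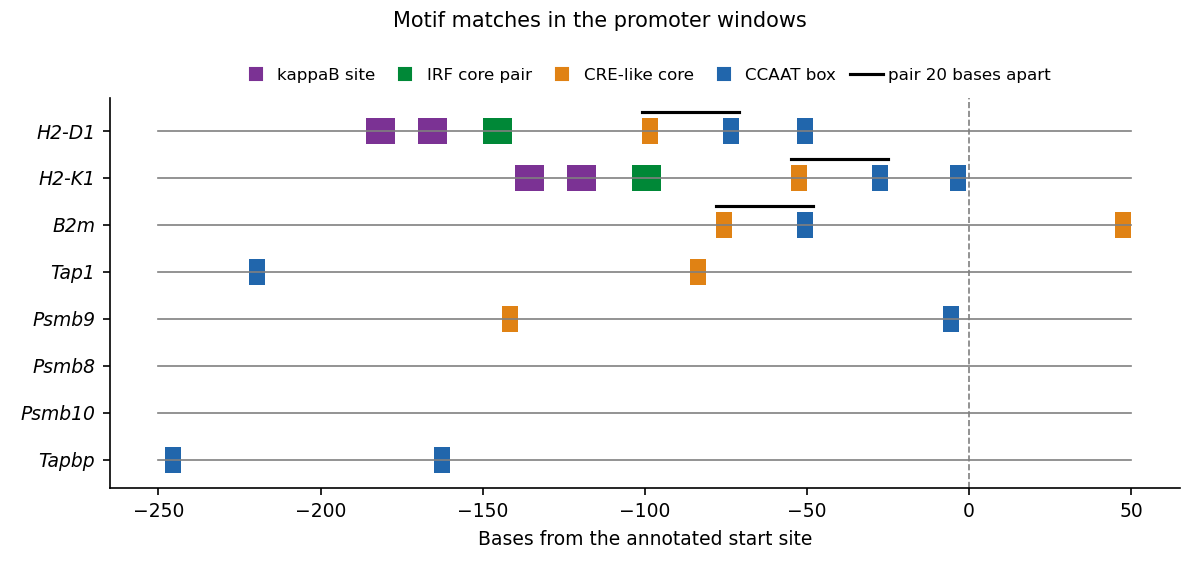
Motif matches in the promoter windows of 8 genes, with bases from the annotated start site on the horizontal axis and 1 line per gene. Coloured blocks are matches to the patterns as written, on either strand, and other forms of the kappaB and IRF elements are not drawn. Black bars mark TGACG and ATTGG separated by 20 bases, which are seen in H2-D1, H2-K1 and B2m only among these 8.

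Levels are given as CPM, a gene's count as a share of the library's total count on the usual scale. Totals were 46137963 to 63956911, and 3 counts corresponded to 0.0469 to 0.0650 CPM. The RNA of set A went against its basophil label: 5 of 9 basophil markers, Prss34, Fcer1a, Cpa3, Cd200r3 and Itga2, were under 1 CPM in all 3 of its libraries, and 0 of 9 were so in all 3 of set B. The 9 markers summed to 39.6 to 270 CPM in set A and 1434 to 3166 CPM in set B. Much of the set A sums came from Hdc, at 38.0, 62.2 and 267 CPM in replicates 1, 2 and 3. The sums there were 39.6, 118 and 270 CPM. Set B also held neutrophil, monocyte and B cell markers at the levels given below, so neither set read as basophils alone. Differences are therefore not read as changes within basophils. Other marker lists differed too: summed levels in A and B were 35018 to 42631 and 25014 to 33103 CPM for monocytes (8 of 8 markers with a count; Lyz2, which neutrophils share, made up 89.0% to 93.3% of each sum), 1132 to 1352 and 429 to 750 CPM for T cells (10 of 11, Cd4 at 0), 1054 to 1469 and 565 to 858 CPM for platelets (6 of 6), and 2400 to 9713 and 12520 to 23293 CPM for neutrophils (10 of 11, Ly6g at 0). Without Lyz2 the other 7 monocyte markers overlapped, at 2454 to 3003 CPM in A and 2358 to 3356 CPM in B. The alpha-globin gene Hba-a1 of red cells stood at 197 to 335 CPM in A and 59.4 to 143 CPM in B. Summed B cell markers overlapped, at 3401 to 5236 CPM in A and 3725 to 4981 CPM in B (8 of 8), as did those of NK cells, at 918 to 2482 and 1007 to 1551 CPM (8 of 8). Dendritic cell markers (8 of 8) summed to 99.3 to 378 CPM in A and 92.3 to 172 CPM in B. Eosinophil markers (3 of 5, Epx and Prg2 at 0) summed to 0 to 70.02 CPM and mast cell markers (2 of 5, Kit, Mcpt4 and Mrgprb2 at 0) to 0.135 to 117 CPM over the 6 libraries. In bulk libraries such as these, fewer cells of a type and less RNA per cell cannot be told apart.

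H2-D1 and B2m were among the most abundant transcripts of every library, and H2-K1 was the class I chain with lower values in every set B library. H2-D1 (ENSMUSG00000073411) stood at 12570, 9894 and 10438 CPM in replicates 1, 2 and 3 of set A and at 9990, 10430 and 10676 CPM in set B. The sets overlapped, and the libraries spanned only 1.27-fold from the lowest to the highest. H2-D1 ranked 4 to 8 among all genes in each library. Its fitted log2 fold change was -0.19 (SE 0.16, 95% interval -0.57 to 0.18, adjusted p = 1.00, edgeR quasi-likelihood test with Benjamini-Hochberg over all genes).

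H2-K1 (ENSMUSG00000061232) stood at 3126, 3131 and 2550 CPM in set A and at 1823, 2016 and 2437 CPM in set B. Every B library lay below every A library, and the closest pair was A replicate 3 and B replicate 3. The fitted log2 fold change was -0.59 (SE 0.20, 95% interval -1.08 to -0.11, unadjusted p = 0.0232). H2-K1 did not pass over all genes tested (adjusted p = 0.542 by edgeR). It ranked 26 to 31 in set A and 40 to 52 in set B.

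B2m (ENSMUSG00000060802), the invariant light chain of every class I molecule, stood at 12276, 8749 and 9991 CPM in set A and at 6847, 7845 and 8988 CPM in set B. The sets overlapped, because B replicate 3 lay above A replicate 2. The fitted log2 fold change was -0.50 (SE 0.20, 95% interval -0.99 to -0.01, unadjusted p = 0.0474, adjusted p = 0.762 by edgeR).

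Related class I genes can share reads, and the authors' handling of such reads is not stated in the sources used. In the GENCODE M21 transcripts, 4.64% of the 100-base windows of H2-D1 occurred unchanged in another gene, H2-Q1 and H2-T23 among them. For H2-K1 and B2m no such window did. The mice's strain is not stated, and class I chains differ between strains.

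Tapasin was lower in every set B library, while both transporter genes differed by more than 1000-fold between libraries and overlapped between the sets. Tapbp (ENSMUSG00000024308) stood at 326, 638 and 419 CPM in set A and at 297, 287 and 263 CPM in set B. All B libraries lay below all A libraries, by a narrow gap between A replicate 1 and B replicate 1. The fitted log2 fold change was -0.80 (SE 0.30, 95% interval -1.53 to -0.07, unadjusted p = 0.0361, adjusted p = 0.660 by edgeR). In set B the 3 values spread by 17.4 CPM (SD), against 160 CPM in set A.

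Tap1 (ENSMUSG00000037321) stood at 502, 90.9 and 0.368 CPM in set A and at 5.79, 132 and 70.7 CPM in set B. Its highest and its lowest value were both in set A, where the raw counts ran from 17 to 27691. Tap2 (ENSMUSG00000024339) stood at 0.145, 71.6 and 85.4 CPM in set A and at 0.543, 177 and 73.1 CPM in set B. It was under 1 CPM in replicate 1 of both sets, where it had 8 and 27 counts. The subunits of this heterodimer did not follow each other in every library. A replicate 1 had the most Tap1 and the least Tap2, and A replicate 3 had almost no Tap1 and 3942 counts of Tap2. In A replicate 2 and B replicates 2 and 3, Tap1 had 1.27, 0.742 and 0.967 times the counts of Tap2. In B replicate 1 it had 10.3 times, with both genes low. Fitted log2 fold changes were -1.72 for Tap1 (SE 1.96, 95% interval -6.44 to 3.0) and 0.62 for Tap2 (SE 2.18, 95% interval -4.63 to 5.87), with an adjusted p of 1.00 by edgeR for both. Without A replicate 1 the value for Tap1 was 0.47.

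**Figure D2:**
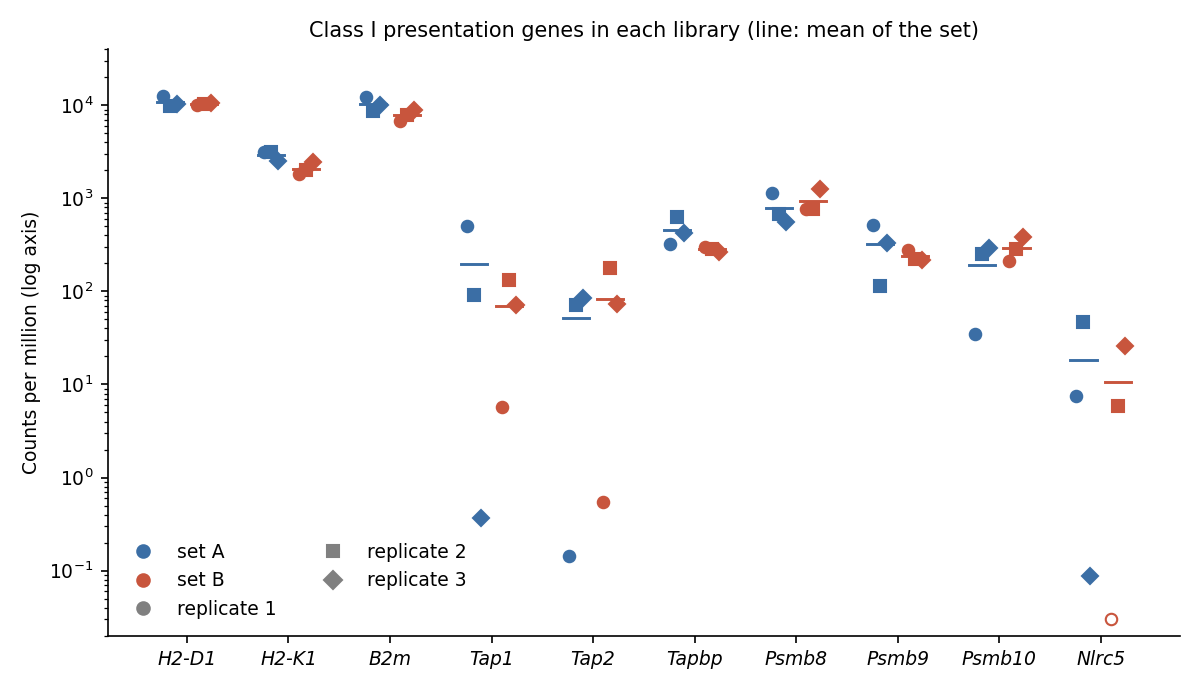
CPM on a log axis for the 10 genes in each library, with set A in blue and set B in red. Symbols show the replicate number, lines the mean of each set, and the open circle a count of 0 (Nlrc5 in B replicate 1). H2-K1 and Tapbp lie lower in all 3 set B libraries, and Tap1, Tap2 and Nlrc5 fall close to 0 in single libraries.

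Such near-0 values in single libraries were common among genes as abundant as Tap2, and less so among genes as abundant as Tap1. Among the 2814 tested genes with a mean of 30 to 100 CPM, the range that holds Tap2, 71.4% had at least 1 library under 1 CPM. For means of 100 to 300 CPM, the range of Tap1, Psmb9 and Psmb10, 20.03% of 1273 genes did. For means of 300 to 1000 CPM, the range of Tapbp and Psmb8, 0.245% of 408 genes did. The SD of log2(CPM + 1) between libraries of a set was 0.133 for H2-D1, 0.192 for H2-K1 and 0.223 for B2m, against a median of 0.30 for the 117 tested genes at or above 1000 CPM. It was 3.49 for Tap1 and 3.59 for Tap2, against medians of 0.832 and 2.46 in their ranges. Tap1 had 4803 counts in A replicate 2 and 17 in A replicate 3, at similar library totals.

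**Figure D3:**
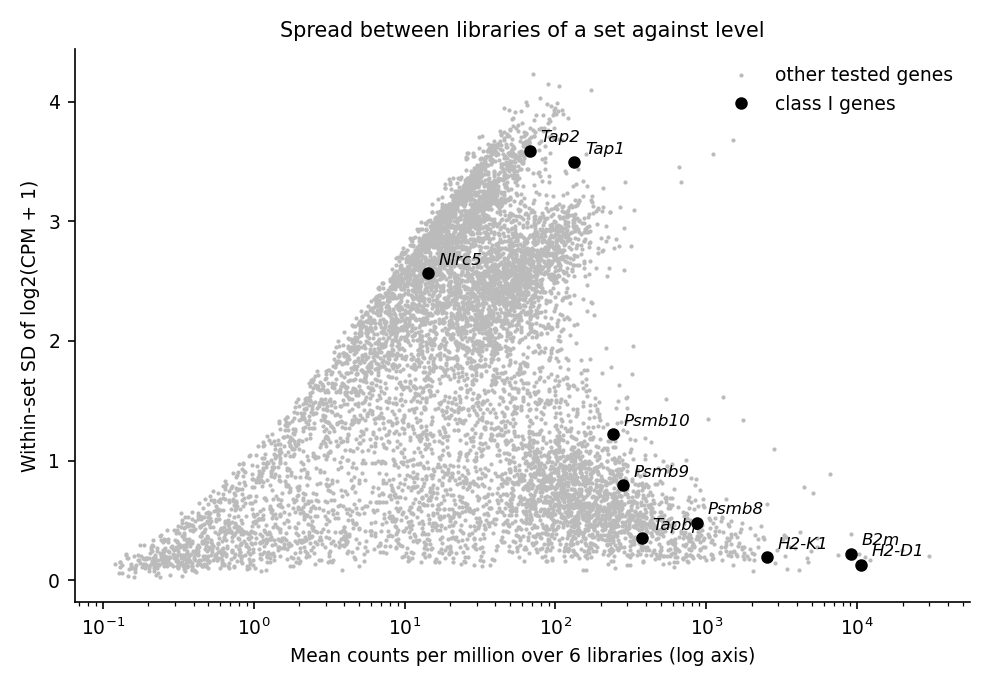
SD of log2(CPM + 1) between the libraries of a set against the mean CPM over all 6 libraries on a log axis, for 9196 tested genes in grey and the 10 class I genes in black. H2-D1, H2-K1 and B2m sit at the high-abundance, low-spread end, and Tap1 and Tap2 lie near the top of the cloud.

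The immunoproteasome subunits were detected in all 6 libraries, and the sets overlapped for each of them. Psmb8 (ENSMUSG00000024338), which takes the place of Psmb5, stood at 1148, 677 and 559 CPM in set A and at 762, 770 and 1270 CPM in set B, with the highest value in each set well above the rest. Psmb9 (ENSMUSG00000096727), which takes the place of Psmb6, stood at 518, 115 and 328 CPM in set A and at 282, 221 and 217 CPM in set B. Psmb10 (ENSMUSG00000031897), which takes the place of Psmb7, stood at 35.1, 250.8 and 289 CPM in set A and at 214, 283 and 381 CPM in set B. A replicate 1 had the most Psmb9 and the least Psmb10 of the 6 libraries. Fitted log2 fold changes were 0.11 for Psmb8 (SE 0.40, 95% interval -0.85 to 1.07), -0.55 for Psmb9 (SE 0.57, 95% interval -1.92 to 0.82) and 0.57 for Psmb10 (SE 0.72, 95% interval -1.17 to 2.3). The adjusted p was 1.00 by edgeR for each of the 3.

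Nlrc5 (ENSMUSG00000074151), the transactivator, had the lowest mean CPM of the 10. It stood at 7.44, 47.3 and 0.0867 CPM in set A and at 0, 5.82 and 25.7 CPM in set B, from 2499 counts down to 4 and 0. High and low values occurred in both sets. The fitted log2 fold change was -0.86 (SE 2.88, 95% interval -7.80 to 6.07, adjusted p = 1.00 by edgeR), and it was 1.29 without A replicate 2. The libraries without Nlrc5 counts to speak of, A replicate 3 and B replicate 1, held H2-D1 at 10438 and 9990 CPM. They held H2-K1 at 2550 and 1823 CPM and B2m at 9991 and 6847 CPM. B replicate 1 had the lowest H2-K1 and B2m of all libraries, and a link of these levels to Nlrc5 was not tested.

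All 10 members passed the filter on low counts, and 0 of 10 passed in edgeR at an adjusted p of 0.05. Over all 9196 genes tested, 0.0217% did. DESeq2 also called 0 members, although it called 13.1% of the 9270 genes to which it gave an adjusted p, and limma-voom called 0 where 2.20% of all genes were called. At an unadjusted p under 0.05 edgeR counted 3 members lower in B (H2-K1, B2m and Tapbp), against 1.32% of all genes tested and 8.19% of the 525 genes with a mean of at least 300 CPM, a range that holds 5 members. It counted 0 members higher in B, against 5.05% of all genes. The 3 lower members became 0 without B replicate 1, without B replicate 2 or with the replicate block, and 1 without A replicate 1, without A replicate 2 or with library size alone. At the same unadjusted p DESeq2 counted 0 members lower, against 1.36% of all genes, and limma-voom 2 (H2-K1 and Tapbp), against 1.99%. Neither counted a member as higher, against 11.3% of all genes by DESeq2 and 7.75% by limma-voom. All B libraries lay below all A libraries for 2 members, against 3.91% of all genes and 7.62% of those at or above 300 CPM. All B libraries lay above all A libraries for 0 members, against 10.2% of all genes.

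Fitted values lay below 0 for 7 members and above 0 for 3, with a median log2 fold change of -0.52. Over all genes tested 4782 of 9196 lay below 0, with a median of -0.06. The median of the members rested on A replicate 1: it was -0.01 without that library, where the median of all genes was 0.10. By limma-voom it was 0.13, against 0.87 for all genes. The summed level of the 10 members was 30509, 23665 and 24661 CPM in set A and 20221, 22167 and 24400 CPM in set B. The highest sum was in A replicate 1, and the sets overlapped. The sums averaged 26278 ± 3698 CPM in A and 22263 ± 2091 CPM in B (SD, n = 3 each, 2-sided exact permutation p = 0.2, where 0.1 is the lowest possible). The difference of -4016 CPM was -1900 CPM without A replicate 1, -1571 CPM without B2m and -6055 CPM on TMM-scaled values. H2-D1, H2-K1 and B2m supplied 90.6% to 93.2% of the members' counts. The lower values of H2-K1, B2m and Tapbp in B stood beside lower Lyz2, Hba-a1 and summed T cell and platelet markers and higher basophil and neutrophil markers, and the part of these in the result was not tested.

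**Figure D4:**
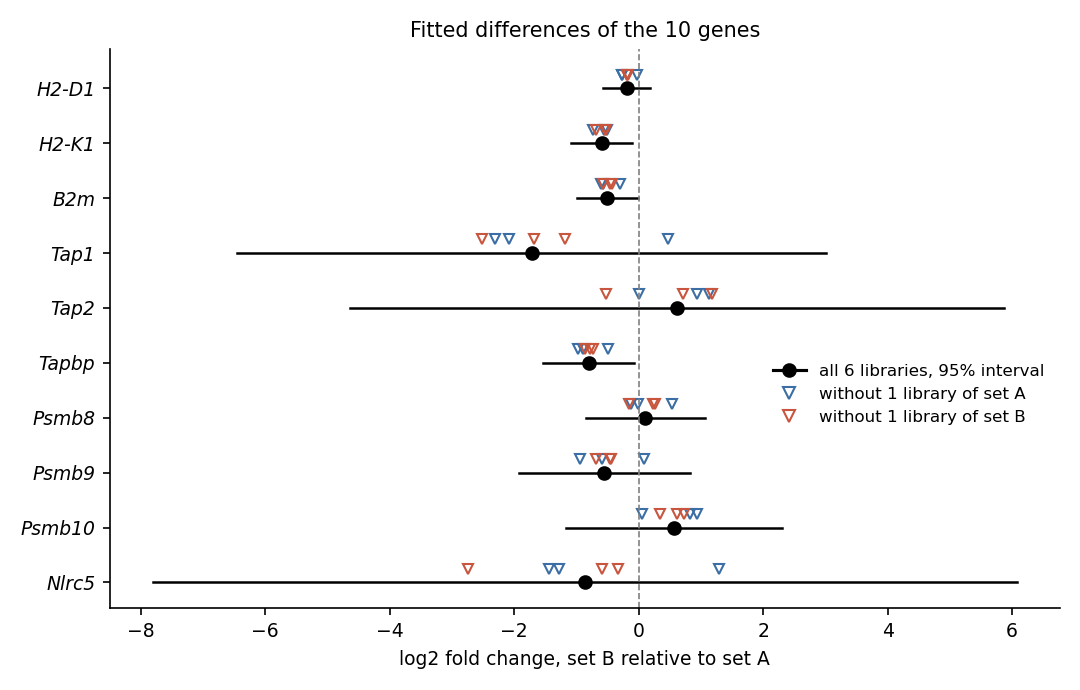
Fitted log2 fold change of set B relative to set A for each gene, with its 95% interval from all 6 libraries in black and the values without single libraries as triangles. The intervals of H2-K1, B2m and Tapbp lie below 0 before adjustment for multiple testing, and the triangles of Tap1, Tap2, Psmb8, Psmb9 and Nlrc5 fall on both sides of 0.

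Levels of different genes were compared as CPM per kilobase of coding sequence. B2m was highest, at 25535 ± 5265 CPM per kilobase (SD, n = 6 libraries), above H2-D1 at 9822 ± 901 and H2-K1 at 2271 ± 493. The ranges of these 3 genes over the 6 libraries did not overlap, nor did that of H2-K1 overlap with Psmb8, which came next at 1044 ± 338. From there down each gene's range overlapped that of its neighbour: Psmb9 at 427 ± 208, Psmb10 at 296 ± 141, Tapbp at 266 ± 101, Tap1 at 61.5 ± 86.4, Tap2 at 32.3 ± 31.1 and Nlrc5 at 2.50 ± 3.25. By these ranges alone the order of neighbours was not resolved. Within each of the 6 libraries Psmb8 lay above Psmb9. Tapbp also lay above Tap1 in each, narrowly in A replicate 1 (233 against 231 CPM per kilobase). The other neighbours named changed order between libraries. Per kilobase of whole transcript, B2m, H2-D1 and H2-K1 kept their order with smaller gaps, at means of 10600, 5074 and 1553 CPM.

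Ratios of counts within a library do not depend on how libraries are scaled, and 7 were compared. H2-D1 exceeded H2-K1 in counts by 4.02, 3.16 and 4.09 times in set A and by 5.48, 5.17 and 4.38 times in set B. The ratio was higher in every B library. On the log2 scale the ratio averaged 1.9 ± 0.21 in A and 2.32 ± 0.17 in B (SD, n = 3 each, 2-sided exact permutation p = 0.1, the lowest possible, Benjamini-Hochberg adjusted p = 0.7 over the 7 ratios). B2m counts were 0.782, 0.672 and 0.769 of the summed counts of H2-D1 and H2-K1 in set A and 0.580, 0.630 and 0.685 in set B. The sets overlapped (2-sided exact permutation p = 0.2, adjusted p = 0.7).

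The 3 induced proteasome subunits together had 3.94, 1.33 and 1.70 times the counts of the 3 constitutive ones in set A, and 1.86, 1.82 and 1.89 times in set B. The set B libraries lay within 0.0244 of each other (SD on the log2 scale), against 0.819 in set A, where A replicate 1 stood apart. That library had 0.254 CPM of Psmb5, against 111 to 247 CPM in the other 5. The log2 ratio averaged 1.05 in A and 0.89 in B (n = 3 each, 2-sided exact permutation p = 1). The single pairs varied more than their sum. In set B, Psmb8 had 3.19, 6.96 and 5.52 times the counts of Psmb5, Psmb9 had 0.860, 0.411 and 0.309 times those of Psmb6, and Psmb10 had 1.94, 5.63 and 6.54 times those of Psmb7. None of these 3 pairs, nor Tap1 against Tap2, separated the sets (exact permutation p = 0.5 to 0.9, adjusted p = 1). In the transcripts, 24.9% of the 100-base windows of Psmb5 occurred in another gene. Some of its reads may thus be shared, and the effect on its counts was not tested.

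**Figure D5:**
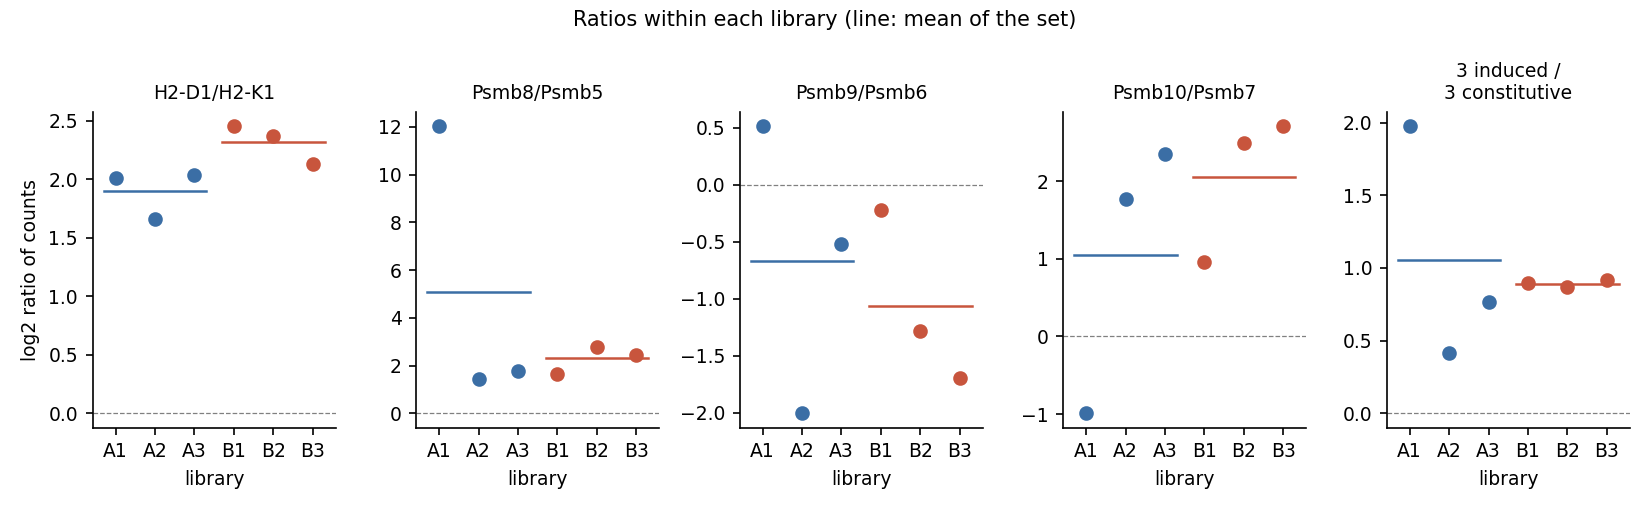
log2 ratio of counts within each library for H2-D1 over H2-K1, each induced proteasome subunit over the constitutive subunit it replaces, and the 3 induced over the 3 constitutive subunits, with a vertical scale of its own in each panel. Points are libraries, lines are set means and the dashed line is a ratio of 1. The H2-D1 to H2-K1 ratio is higher in all 3 set B libraries, and A replicate 1 is extreme in the 4 proteasome panels.

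Other genes of the pathway, taken as 7 lists of 69 genes, showed no call: 62 could be tested and 0 passed by edgeR in either direction. The chaperones and trimming enzymes of peptide loading had 4 of 8 fitted values above 0 and a median log2 fold change of 0.07. The most abundant were the endoplasmic chaperone Hspa5 (579 ± 89.2 CPM in A, 438 ± 182 in B), the disulfide isomerase Pdia3 (385 ± 198 and 305 ± 154) and calreticulin, Calr (165 ± 32.3 and 164 ± 84.3; SD, n = 3 each). The constitutive catalytic subunits had 3 of 3 values above 0 with a median of 0.19, led by Psmb6 (432 ± 60.4 CPM in A, 522 ± 187 in B). The other 11 subunits of the proteasome core had a median of -0.11, with 8 of 11 below 0. Of their most abundant members, Psma7 had 603 ± 58.4 CPM in A against 623 ± 28.1 in B, Psmb3 had 575 ± 69.6 against 575 ± 88.5, and Psma1 had 457 ± 193 against 451 ± 94.1 (SD, n = 3 each).

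The proteasome activator and assembly list had a median of -0.21 over 7 tested genes. Its abundant members were the assembly chaperone Pomp (525 ± 85.4 CPM in A, 483 ± 87.6 in B) and the PA28 subunits Psme1 (408 ± 115 and 285 ± 75.6) and Psme2 (212 ± 154 and 387 ± 19.95; SD, n = 3 each). Psme1 and Psme2 form a joint ring, and their fitted log2 fold changes were -0.63 (SE 0.39) and 0.78 (SE 0.52), with an adjusted p of 1.00 by edgeR for both. Transcription factors of the class I genes had 8 of 15 values above 0 and a median of 0.13. Irf8, an interferon regulatory factor of myeloid cells, had 387 ± 147 CPM in A against 216 ± 52.3 in B, and the NF-kappaB subunit Nfkb1 had 131 ± 134 against 256 ± 72.6 (SD, n = 3 each). Interferon receptors and their kinases had 5 of 6 values below 0 and a median of -0.52. The interferon gamma receptor chain Ifngr1 stood at 1457, 1091 and 1122 CPM in set A and at 1025, 944 and 903 CPM in set B, with every B library below every A library (log2 fold change -0.47, SE 0.21, adjusted p = 0.919 by edgeR). The same held for 3.91% of all genes tested and 7.62% of those with a mean of at least 300 CPM.

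Over 1790 other genes with a mean of at least 100 CPM, the 5 whose log2 levels followed the mean of H2-D1, H2-K1 and B2m most closely over the 6 libraries were Lyz2 (Pearson r = 0.97), Rn7s2 (0.97), Rn7s1 (0.96), Sys1 (0.96) and Phyh (0.94). They were picked for this likeness among many genes over few libraries, so the coefficients describe these libraries only. Lyz2, the lysozyme of monocytes and neutrophils, stood at 39756, 32661 and 32015 CPM in set A and at 22656, 22600 and 29746 CPM in set B. Its highest library was A replicate 1 and its highest in set B was replicate 3, as for H2-D1 and B2m. Rn7s1 and Rn7s2, near-identical genes of the signal recognition particle RNA, are 1 signal rather than separate ones.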

How the data were processed

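The authors deposited raw counts per Ensembl gene, with a column for each library. The tools listed in the submitters' processing notes, without their roles, are DESeq2, HISAT2 2.2.1 and cutadapt 1.9. Per the labels' protocols libraries were made by Smart-seq2, which amplifies cDNA without molecular identifiers, and read as pairs of 150 bases, with a stated yield per sample far below the deposited totals. Low counts were more often 4 (5211 values) than 3 (819) or 5 (660), so the number of fragments behind a count is not known. For the counting program, genome build, annotation and strand setting the answer is the same: not given in the sources used here.

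Symbols came from a table of identifiers (55141 of 55401 matched, and all 164 list entries). Set B was compared with set A over 6 libraries by edgeR 4.0.16 in R 4.3.3 (filterByExpr, TMM, glmQLFit with robust=TRUE, glmQLFTest, Benjamini-Hochberg, threshold 0.05), on 9196 genes. SE is the absolute log2 fold change over the square root of F, and 95% intervals use its t quantile. Summed levels and ratios (pseudocount 1 count) had 2-sided exact permutation tests in scipy 1.17.1. Coding lengths are those of the longest coding sequence in GENCODE M21, used because no protein table was at hand. Windows of 100 bases were compared between GENCODE transcripts. All 10 members are named, the 3 most abundant genes of each other pathway list, genes past the threshold, and the 5 most alike, except that some items under this rule are not reported here. The monocyte sum without Lyz2, the use of Hba-a1, ranges of mean CPM, the split at 300 CPM and the promoter elements were chosen after the values or sequences were seen, and members and lists with earlier results of these data known. The edgeR, DESeq2 and limma-voom fits were run on simulated counts with planted differences. A pass was required only of edgeR, at a dispersion set low. The ratio, sum and promoter steps were not covered, and results at the estimated dispersion are not given here. The alternatives tried were no filter, RLE scaling, library size alone, a stricter filter (mean of 10 CPM and 10 counts), DESeq2 1.42.0, limma-voom (limma 3.58.1), robust=FALSE, counts divided by 4, a replicate block and each library left out.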

Additional observations from a re-analysis of the deposited data

How the results depend on the processing

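Of 149 refitted values of the 10 members under 15 other settings, 137 kept their direction and 12 turned, and 0 members passed under any of them by edgeR, DESeq2 or limma-voom. H2-D1 (-0.30 to -0.03 on the log2 scale), H2-K1 (-0.73 to -0.48), B2m (-0.61 to -0.24), Tapbp (-0.97 to -0.49) and Psmb10 (0.06 to 0.95) kept their direction throughout, with adjusted p from 0.352 to 1.00. With each library left out in turn, log2 fold changes ran from -2.52 to 0.467 for Tap1, -0.519 to 1.1745 for Tap2, -0.146 to 0.537 for Psmb8, -0.941 to 0.0870 for Psmb9 and -2.75 to 1.29 for Nlrc5. By limma-voom Tap1 was 1.69 and Nlrc5 0.424, and Psmb8 was -0.0181 with RLE scaling and -0.0167 by DESeq2. RLE scaling moved the median of all genes by -0.10. Nlrc5 was not tested under the stricter filter.

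Over all genes edgeR called 2, DESeq2 1218 and limma-voom 202. With the replicate block edgeR called 0 genes (345 at an unadjusted p under 0.05), and Tap1 was then 0.407. Same-numbered libraries did not deviate together (correlations of 0.0280, -0.0241 and 0.0261 for numbers 1, 2 and 3), and not every library correlated best with its own number. Without single libraries edgeR called 0 to 1 genes, 1 of them only without B replicate 3. Of the differences in log2 ratio, Tap1 over Tap2 ran from -5.002 to 4.68 without single libraries, Psmb8 over Psmb5 from -4.60 to 0.695, Psmb9 over Psmb6 from -1.06 to 0.198, Psmb10 over Psmb7 from -0.00680 to 1.66 and the 3 induced over the 3 constitutive subunits from -0.480 to 0.3001. Among these settings the 4 proteasome differences changed sign when A replicate 1 was left out and for no other library. For H2-D1 over H2-K1 they ran from 0.299 to 0.512. The cause of these changes was not tested.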

Other observations

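Non-classical class I genes and their relatives, which present lipids, signal to NK cells or bind other ligands, had 6 of 12 tested fitted values above 0, with a median log2 fold change of 0.24, and 0 passed by edgeR. The most abundant were Hfe, a regulator of iron uptake (680 ± 351 CPM in A, 501 ± 314 in B), Fcgrt, the neonatal Fc receptor (489 ± 194 and 412 ± 168), and H2-T23, the mouse Qa-1 molecule (408 ± 131 and 360 ± 98.3; SD, n = 3 each). H2-M3, which shares the spaced promoter pair with H2-D1 and H2-K1, was at 0.109, 430 and 153 CPM in set A and at 204, 116 and 73.1 CPM in set B. Mr1 had 0 counts in all 6 libraries.

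Genes singled out here after their values were seen include H2-T10, a non-classical chain, at 0, 0.0757 and 0.0867 CPM in set A and at 56.3, 71.9 and 5.99 CPM in set B (unadjusted p = 0.0134, adjusted p = 0.508 by edgeR). Creb1 and Atf1, factors that bind CRE-like elements, were under 0.1 CPM in set A and at 11.8, 55.4 and 20.7 CPM and 1.37, 74.8 and 16.5 CPM in set B (adjusted p = 0.508 by edgeR for both). All 3 have low means, in the range where single libraries often lack a gene. H2-Q10 was at 0.925, 1.59 and 222 CPM in set A and at 252, 161 and 256 CPM in set B, with A replicate 3 among the B values.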
